A study of Mus musculus with 5 samples.

Results

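The contraction genes of the mammary gland were described as a set of 10 genes, Acta2, Actg2, Myh11, Mylk, Myl9, Cnn1, Tagln, Des, Lmod1 and Oxtr. They were chosen by name as parts of the contractile apparatus of smooth muscle and myoepithelial cells, with the oxytocin receptor added. All 10 were found among the 22609 genes of the deposited table. Milk leaves the alveoli when oxytocin from the pituitary reaches its receptor on myoepithelial cells, which wrap the alveoli and ducts and contract like smooth muscle. The receptor raises calcium inside the cell, calcium with calmodulin switches on myosin light chain kinase, and the phosphorylated light chain lets the myosin motor pull on actin filaments. The same genes are used by the muscle cells of arteries and veins in the gland.

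RNA sequencing was done on whole glands of outbred mice, with lymph nodes removed, within 12 hours after delivery. There were 2 libraries from animals labelled wild type and 3 from animals labelled Nfib-null, that is, without the transcription factor NFIB according to that label. The labels give neither the age of the mice nor the cells in which the gene was removed. The table holds a single value per gene for each genotype, so no spread between animals could be had and no difference below has a test. The column taken as Nfib-null is named NfibFF-WC in the file, a name the labels do not spell out, and it was assigned because it is the only group left beside Nfib-WT. Nfib itself was listed there at 55.3 RPKM, against 33.7 RPKM in the wild-type column, so its level gives no check of the assignment. RPKM counts reads per kilobase of gene, scaled to all mapped reads, and it allows levels of different genes to be compared.

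Every contraction gene was detected in both columns, and their order by level was the same in both. Acta2 was the most abundant, with 704 RPKM in Nfib-null and 373 RPKM in wild-type glands, and ranked 77 and 142 among all genes of the table. Tagln followed, then Myl9, Myh11, Cnn1, Oxtr, Mylk, Actg2 and Lmod1, and Des was the lowest at 6.75 and 4.06 RPKM. The highest member was 104 times as abundant as the lowest in Nfib-null glands and 91.9 times in wild-type glands. As deposited, all 10 values were higher in the Nfib-null column, by factors between 1.00 for Actg2 and 1.89 for Acta2.

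**Figure D1:**
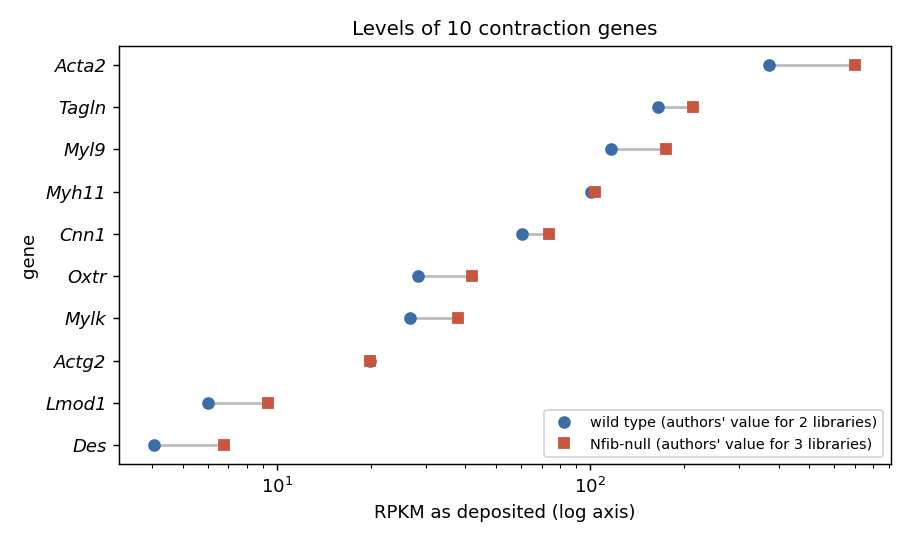
Level of each contraction gene in RPKM as deposited (log axis), with a circle for the wild-type column and a square for the Nfib-null column, each the authors' value for the group. The order of the genes is the same in both columns, and the points of Actg2 (19.9 and 19.8 RPKM) and Myh11 (104 and 101 RPKM) nearly coincide while those of Acta2 stand apart.

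The columns differ in how much RNA the milk genes take, so the deposited values needed a common scale. The 7 genes for caseins, whey acidic protein and alpha-lactalbumin held 50.9% of all RPKM in wild-type glands and 24.8% in Nfib-null glands. The 10 contraction genes together held 0.0950% and 0.253%, and without the 7 milk genes in the sum 0.194% and 0.336%. Each column was therefore divided by a factor, 1.15 for Nfib-null and 0.867 for wild type, that brings the median ratio of the columns to equality over the 12511 genes averaging 1 RPKM or more. Differences from here on are Nfib-null minus wild type on the scale log2(scaled RPKM + 1), and counts of higher and lower genes take differences of 2-fold or more. Where a pair of values is given, Nfib-null comes first.

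On that scale none of the 10 contraction genes was 2-fold higher or lower, while 12.9% of the 12511 genes were called, 6.95% higher and 5.97% lower. The 10 differences ran from -0.38 for Actg2 to 0.50 for Acta2. Their median was 0.13, which corresponds to 1.09-fold, beside a median of all genes that this scaling sets to about 0. Of the 10 genes, 8 lay between the lower and the upper quartile of all genes (-0.37 and 0.39). Acta2 lay above this range, with 79.9% of genes below it, and Actg2 lay under it, with 23.9% of genes below. Whole-gland RNA cannot tell fewer contractile cells from less RNA per cell.

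The sign of these small differences was set by the scaling. Of the 10 genes, 6 were above 0 after median-ratio scaling, 10 as deposited, 8 with quantile-normalized columns and 8 where columns were set to the same sum, leaving out the 20 top genes. Scaled to basal epithelial markers 1 was above 0, and scaled to luminal epithelial markers 0 were. With luminal scaling, where 1.77% of all genes were called higher and 24.9% lower (26.7% in either direction), Myh11 and Actg2 passed 2-fold, both at -1.07. These scalings moved the median of all genes as well, to 0.35 as deposited, 0.15 with equal sums, -0.33 with basal markers and -0.61 with luminal markers. Taken relative to that median, the median of the contraction genes stayed between 0.048 and 0.22 under all 6 scalings. Acta2 was the highest of the 10 in each of them.

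**Figure D2:**
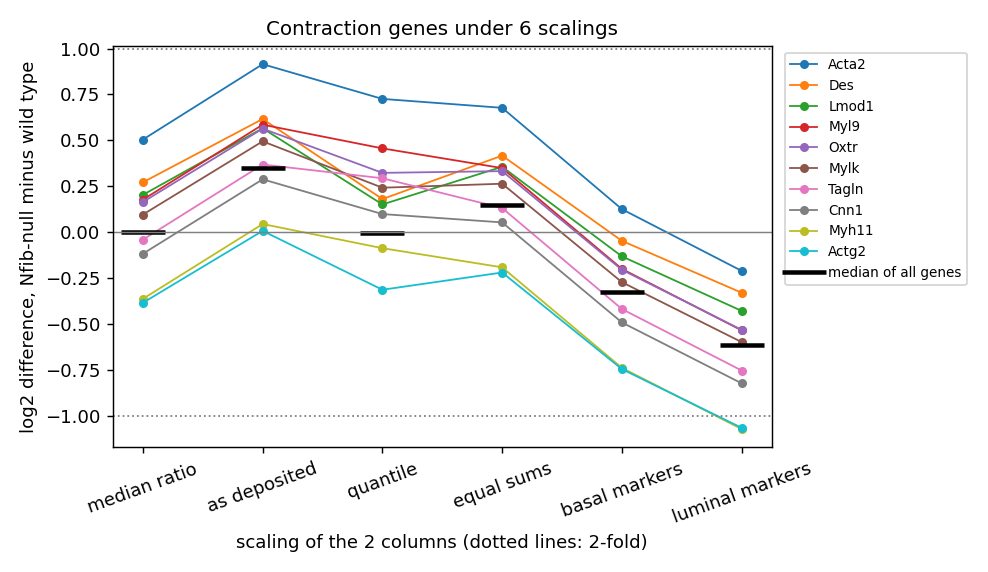
Log2 difference of each contraction gene (Nfib-null minus wild type) under 6 scalings of the columns, with lines joining the points of a gene, black bars for the median of all genes and dotted lines at 2-fold. The genes shift together with the black bar, from above 0 as deposited to below 0 with luminal markers, and Acta2 stays at the top while Actg2 and Myh11 stay at the bottom.

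The start sites of the contraction genes are shown because many smooth muscle genes are switched on by serum response factor, a DNA-binding factor that recognizes the CArG box, with myocardin or its relatives as partners. RefSeq promoter windows of the build GRCm38.p6, 250 bases before to 50 after each annotated start, were matched by symbol for 7 of the 10 genes (Acta2, Cnn1, Des, Lmod1, Myl9, Mylk and Oxtr). The box was searched on both strands as CC, then 6 bases of A or T, then GG, and again with exactly 1 G or C allowed among the 6. Among the members with a window, the strict form was found in Myl9, and 1.63% of 32851 mouse windows held it. The relaxed form was found in Acta2 and Myl9, and 8.50% of windows held it. The Acta2 matches lay 84 to 75 and 34 to 25 bases before the RefSeq start. Those of Myl9 lay 161 to 152 bases before it for the strict form and 99 to 90 for the relaxed form. The stretches of 250 bases before the start are printed 5′ to 3′ on the gene's strand, with capitals for the CArG matches, at chr19:34255374-34255623 on the minus strand for Acta2 and chr2:156775214-156775463 on the plus strand for Myl9.
Acta2: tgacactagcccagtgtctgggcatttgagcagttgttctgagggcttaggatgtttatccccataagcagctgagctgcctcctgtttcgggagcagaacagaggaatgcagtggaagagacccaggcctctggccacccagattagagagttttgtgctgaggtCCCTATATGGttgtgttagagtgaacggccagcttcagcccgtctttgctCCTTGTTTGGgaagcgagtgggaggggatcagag
Myl9: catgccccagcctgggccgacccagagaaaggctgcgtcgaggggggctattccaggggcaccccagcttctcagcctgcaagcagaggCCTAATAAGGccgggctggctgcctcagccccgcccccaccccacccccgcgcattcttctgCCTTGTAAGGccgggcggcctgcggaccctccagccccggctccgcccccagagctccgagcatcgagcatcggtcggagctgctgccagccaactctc

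The factor named in the study, NFIB, binds sites built on the core TTGGCA, and STAT5, also named in its title, binds TTCNNNGAA. Both were searched on both strands of the same windows. TTGGCA stood in 1 of the 7 member windows, that of Cnn1, at 231 to 226 and 63 to 58 bases before the start, and in 14.1% of all windows. The full NFI site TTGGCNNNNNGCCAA was in none of the 7 and in 0.0365% of all windows, and TTCNNNGAA in none of the 7 and in 8.30%. A match describes letters and shows no binding. The Cnn1 stretch is printed with TTGGCA in capitals (chr9:22099003-22099252, plus strand).
Cnn1: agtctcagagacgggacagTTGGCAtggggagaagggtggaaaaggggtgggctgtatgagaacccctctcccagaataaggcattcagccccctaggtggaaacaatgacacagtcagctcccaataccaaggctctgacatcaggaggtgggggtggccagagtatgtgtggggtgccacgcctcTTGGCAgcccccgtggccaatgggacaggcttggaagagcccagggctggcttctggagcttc

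Oxtr encodes the receptor through which oxytocin triggers milk ejection. Its level was 42.1 RPKM in Nfib-null glands and 28.1 RPKM in wild-type glands, a difference of 0.16 after scaling. Its place among all genes by level was 1616 and 2105. The difference lay near the middle of all genes, with 61.5% of them lower, and it was 0.56 as deposited and -0.53 with luminal scaling. Set against the basal keratin gene Krt14 within each column, Oxtr held 0.736 of its level in the Nfib-null column and 0.722 in the wild type. The gene of the hormone itself, Oxt, was listed at 0.153 and 0.0708 RPKM, below the minimum, and oxytocin reaches the gland from the pituitary. The related vasopressin receptor genes Avpr1a (0.435 and 0.467 RPKM) and Avpr2 (0.0974 and 0.118 RPKM) were also below it, which left Oxtr as the one receptor of the 3 above the minimum.

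Mylk encodes myosin light chain kinase, the calcium and calmodulin dependent enzyme that starts contraction. It stood at 37.9 against 26.6 RPKM, a difference of 0.10. Its substrate, the regulatory light chain gene Myl9, stood at 175 against 117 RPKM, a difference of 0.18. The ratio of kinase to light chain mRNA, which does not depend on scaling, was 0.216 in the Nfib-null column and 0.229 in the wild type. The skeletal and cardiac kinases Mylk2 and Mylk3 were below the minimum in this tissue (0.0209 and 0.121 RPKM, and 0.0315 and 0.059 RPKM). Part of the Mylk value is uncertain, because antisense genes of the GENCODE annotation overlap its exons. E130310I04Rik overlaps 4.87% of its exon bases and Gm21691 1.99%, and no source states whether strand was used in counting.

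Myh11 encodes the smooth muscle myosin heavy chain, the motor of the system. Its deposited values were nearly equal, 104 RPKM in Nfib-null glands and 101 RPKM in wild-type glands. Its difference was 0.044 as deposited, where the median of all genes was 0.35, and -0.36 after scaling, with 25.1% of genes below it. Actg2, the enteric smooth muscle actin, stood at 19.9 against 19.8 RPKM and differed by 0.0068 as deposited and -0.38 after scaling. The ratio of Actg2 to Myh11 was accordingly 0.191 and 0.196.

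Acta2, the smooth muscle alpha actin used as a mark of myoepithelial cells, differed from Myh11 and Actg2. Acta2 mRNA was 6.78 times that of Myh11 in the Nfib-null column and 3.70 times in the wild type, a 1.83-fold change of the ratio. Over Actg2 the ratios were 35.5 and 18.9, a 1.88-fold change. Acta2 alone gave 50.8% of the RPKM of the 10 genes in Nfib-null glands and 41.4% in wild-type glands. These ratios are free of the scaling of the columns, and they show unequal differences among the contraction genes without showing which of the genes stayed level.

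Actin genes are alike in their coding sequence, so the share of each transcript found unchanged in another annotated gene, on either strand, was counted. Windows that differ from another gene by a few bases were not counted, so the shares can understate what is hard to assign. Of the 50-base windows of the longest coding Acta2 transcript in GENCODE, 0.352% also occurred in another gene, and none of the Actg2 windows did. No source used here gives the read length. For Myh11 the share was 0.40%, for Mylk 4.28%, for Des 5.81%, and for Myl9, Cnn1, Lmod1 and Oxtr 0%. Tagln was the exception, with 48.3% of windows shared, mostly with the antisense gene Gm48529, which covers 62.4% of Tagln exon bases on the opposite strand. Tagln also shares 108 exon bases with Pcsk7 (20.2 and 25.2 RPKM), so without a statement on strand the Tagln values may hold reads of its neighbours.

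Tagln encodes transgelin, an actin-binding protein of smooth muscle, and Cnn1 encodes calponin, which binds thin filaments and holds back the myosin ATPase. Tagln was measured at 213 RPKM in Nfib-null glands and 165 RPKM in wild-type glands, a difference of -0.041. Cnn1 stood at 74.0 against 60.5 RPKM, a difference of -0.12. Both lay near the middle of all genes, with 47.1% and 41.5% of genes lower. The ratio of Tagln to Cnn1 was 2.88 in the Nfib-null column and 2.73 in the wild type.

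Lmod1 encodes leiomodin, which starts new actin filaments in smooth muscle, and Des encodes desmin, the intermediate filament of muscle cells. They were the members of lowest level. Lmod1 stood at 9.36 against 6.002 RPKM and differed by 0.20, and Des stood at 6.75 against 4.06 RPKM and differed by 0.27. The striated muscle leiomodins Lmod2 and Lmod3 were below the minimum. Depth was read from the smallest steps between low values, taken with GENCODE transcript lengths. The clearest steps gave about 17700000 and 14800000 reads for the wild-type column and 27400000 and 32800000 for the Nfib-null column. The wild-type column, of 2 libraries, also had a step at 16000000 (22 genes, against 33 and 29), so the steps do not identify its libraries. At those depths a gene of 1 kb at the level of Des would hold about 132 reads in the wild-type column and 406 in 2 of the 3 Nfib-null libraries, and counting alone would give its difference a standard error of 0.14. The depths are approximate and hold only if low values kept their whole-read steps.

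Muscle-type genes were next set against the non-muscle members of their families, which most cells of the gland use. The 11 pairs were formed by gene family from 7 contraction genes and 9 counterparts. The ratio was lower in the Nfib-null column in 9 and higher in 2, with a median change of -0.71 on the log2 scale. The share of all genes that fall against the same counterparts was not counted. After scaling the counterparts lay between 0.34 (Myh9) and 1.10 (Vim), except Cnn3 (-0.24). A gene at the median of all genes, about 0, would thus also be lower against each of them but Cnn3. Myh11 stood at 17.0 times the level of the non-muscle myosin gene Myh10 in the Nfib-null column and 40.2 times in the wild type. Against Myh9, the main non-muscle heavy chain, the ratios were 0.878 and 1.44. Myh11 mRNA thus exceeded Myh9 mRNA in the wild-type column and not in the Nfib-null column. Tagln over Tagln2 was 2.22 against 4.48, Cnn1 over Cnn2 1.62 against 2.57, Des over the intermediate filament gene Vim 0.0230 against 0.0395, and Myl9 over Myl12b 1.78 against 2.33.

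The pairs that did not follow were Acta2 over Actb (0.862 against 0.815) and Cnn1 over Cnn3 (1.93 against 1.77). Over Actg1, the other cytoplasmic actin gene, Acta2 stood at 0.891 against 1.13. Actg2 over Actg1 was the pair with the largest change, 0.0251 against 0.0597, and over Actb it was 0.0243 against 0.0431. Because a counterpart can be made by any cell type of the gland, these ratios describe the tissue and not a single cell. The pairs share genes and are not independent of one another.

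**Figure D3:**
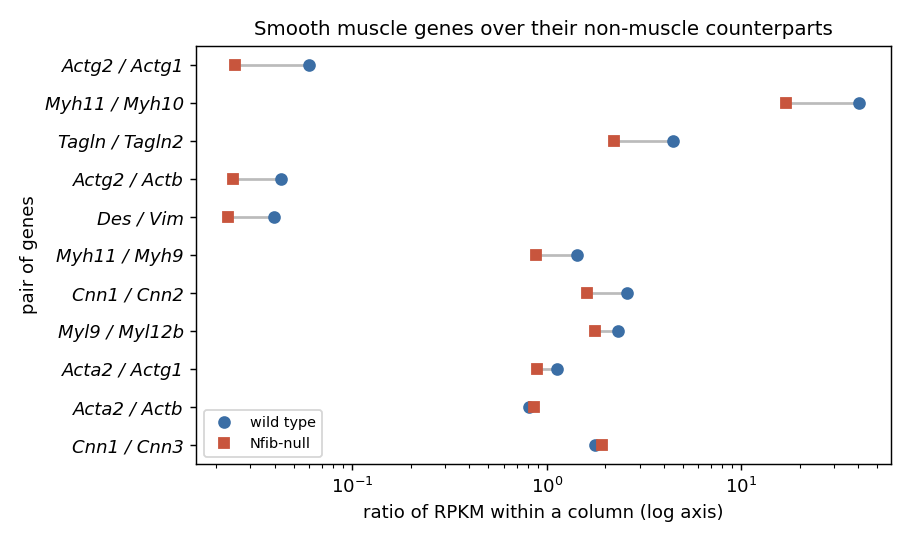
Ratio of the RPKM of a smooth muscle gene to that of a non-muscle gene of its family within each column (log axis), circles for wild type and squares for Nfib-null, for 11 pairs. The square lies to the left of the circle in 9 pairs, and slightly to the right for Acta2 over Actb and Cnn1 over Cnn3.

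Of all 19 paralogs found, including those in no pair, 11 were above the minimum, 3 were at least 2-fold higher and 0 lower, and the median was 0.70. Among the 9 counterparts of the pairs, Vim was the one gene past 2-fold. The background was again 6.95% of genes higher and 5.97% lower. The intermediate filament gene Vim (293 against 103 RPKM, 1.10) and the non-muscle myosin gene Myh14 (13.1 against 3.89 RPKM, 1.18) passed 2-fold with that scaling. They did not with luminal markers (0.38 for Vim and 0.55 for Myh14) or basal markers (0.72 and 0.84). With a pseudocount of 5, Vim stayed past 2-fold (1.07) and Myh14 did not (0.79). Vim is also made by fibroblasts, whose 15 markers had 11 genes higher. With basal scaling 7 of them were higher (421 of all 12511 genes), and with luminal scaling 3 (1.77% of all genes). Their summed level was 2046 against 562 RPKM with none at 0, and the part of these cells in the ratios was not tested. The skeletal muscle actin gene Acta1 was the third, at 31.9 against 4.11 RPKM (2.32). Of 15 skeletal muscle markers, Acta1 among them, 6 were above the minimum, 1 was higher (Acta1) and 2 were lower, with a median of -0.12. The lower genes were Ckm (0.208 against 2.63 RPKM, -1.77) and Tnni2 (1.03 against 2.93 RPKM, -1.21), and with a pseudocount of 5 neither passed 2-fold. Mylpf (-0.92) lay below 0 within 2-fold, and Mb (6.67 against 2.71 RPKM, 0.72) and Myl1 (7.64 against 3.24 RPKM, 0.69) lay above 0. With no minimum, 1 of the 15 skeletal muscle markers was higher and 7 were lower, with a median of -0.94. Beside them 850 of all 22609 genes were higher and 800 lower. The markers added in this way averaged below 1 RPKM. Of the remaining paralogs above the minimum, Tagln2 (0.95), Actg1 (0.84), Myh10 (0.70), Myl12b (0.56), Cnn2 (0.53), Actb (0.42) and Myh9 (0.34) were within 2-fold above 0 and Cnn3 (-0.24) below. With luminal scaling Myl12b (-0.15), Cnn2 (-0.16), Actb (-0.29) and Myh9 (-0.37) turned below 0, with basal scaling Myh9 did (-0.034), and as deposited Cnn3 was above 0 (0.16). The cardiac actin gene Actc1 was listed at 0.168 and 0.267 RPKM.

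Other genes of the contractile apparatus and its anchors were read from a list of 30 genes, all found in the table. Of the 28 above the minimum, 5 were at least 2-fold higher, 0 were lower, and the median was 0.49, beside 6.95% of all genes higher and 5.97% lower. The listed tropomyosin, caldesmon and smoothelin genes, which work on the same filaments as the 10 members, were within 2-fold. The tropomyosin genes were Tpm1 (103 against 52.3 RPKM, 0.55), Tpm2 (98.9 against 80.0 RPKM, -0.10) and Tpm4 (132 against 63.6 RPKM, 0.64). Tpm4 passed 2-fold as deposited (1.04). The others were Cald1 (60.6 against 31.1 RPKM, 0.54) and Smtn (50.2 against 26.7 RPKM, 0.48). The choice of these genes was made with their values known. Among those of largest difference were Sncg, gamma-synuclein (259 against 54.7 RPKM, 1.81), and Fhl1, a LIM domain protein of muscle (13.3 against 2.79 RPKM, 1.57). Sncg is also strongly made by fat cells. Of 12 adipocyte markers 11 were higher, with a summed level of 10601 against 2181 RPKM and none at 0, and their part in the Sncg value was not tested. Also higher, and outside the naming rule, were the integrin genes Itga7 (1.21) and Itga8 (1.06). With luminal scaling 2 of the 28 were higher and 1 was lower, beside 1.77% and 24.9% of all genes, and the median was -0.19. Fhl1 (0.96), Itga7 (0.61) and Itga8 (0.37) were then within 2-fold, and with basal scaling so were Itga7 (0.89) and Itga8 (0.70). Itga7 (0.75) and Itga8 (0.93) were within 2-fold with a pseudocount of 5 as well.

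The regulators that act on smooth muscle genes were mostly at low or moderate level. Srf, the gene of serum response factor, stood at 16.0 against 9.86 RPKM (0.27). Its cofactor Myocd, which marks vascular and visceral smooth muscle, was listed at 0.0443 and 0.0134 RPKM, below the minimum. Of 15 regulator genes above the minimum, 4 were higher and 0 lower, with a median of 0.62, beside 6.95% and 5.97% of all genes. The 4 were the Notch target Hey1 (16.9 against 2.55 RPKM, 1.99), Klf4, a Kruppel-like factor known to repress smooth muscle genes (19.6 against 3.85 RPKM, 1.73), the myocardin-related cofactor Mkl2 (15.0 against 4.12 RPKM, 1.28) and, outside the naming rule, Fhl2 (1.21). Hey1 and Klf4 stayed past 2-fold under all 6 scalings (1.38 to 2.33 and 1.09 to 2.09). With a pseudocount of 5, Mkl2 (0.88) and Fhl2 (0.69) were within 2-fold. They were also within 2-fold with luminal markers (0.65 and 0.63) and with basal markers (0.95 and 0.90). In these scalings 2 genes were higher and 1 was lower, Smad3, a transducer of TGF-beta signals (-1.57 and -1.26, and -0.89 after median-ratio scaling). With luminal scaling 1.77% of all genes were higher and 24.9% lower. With basal scaling 421 of the 12511 genes were higher and 1559 lower. The median of the list was -0.065 with luminal and 0.25 with basal scaling.

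Genes between the oxytocin receptor and the myosin motor were read from a list of 32, among them those for G proteins, phospholipase C, calcium channels and pumps and calmodulin. Of these, 29 were above the minimum, 1 was higher, 1 was lower, and the median was 0.12, beside 6.95% of all genes higher and 5.97% lower. With luminal scaling 0 were higher and 7 lower (1.77% and 24.9% of all genes), with a median of -0.47, and with basal scaling the median was -0.25. Gnaq, the G protein subunit that couples the receptor to phospholipase C, stood at 29.3 against 18.6 RPKM (0.24). The higher gene was Rgs4, a brake on that G protein, at 4.59 against 1.25 RPKM (1.03). Rgs4 was within 2-fold when quantile-normalized (0.89), with basal markers (0.76), with luminal markers (0.53) and with a pseudocount of 5 (0.48). The lower gene was Orai1, the plasma membrane channel through which calcium refills the stores, at 26.7 against 88.0 RPKM (-2.09). Orai1 was past 2-fold lower under all 6 scalings, from -1.69 to -2.78. It is made by many cell types, the milk-making epithelium among them. The 7 milk protein genes were all lower (2 of them with quantile normalization), with a summed level of 135818 against 482681 RPKM and none at 0. Luminal epithelial markers mostly went the other way, with 6 of 18 genes higher, 1 lower and a median of 0.71. The part of the milk-making epithelium in the Orai1 value was not tested.

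**Figure D4:**
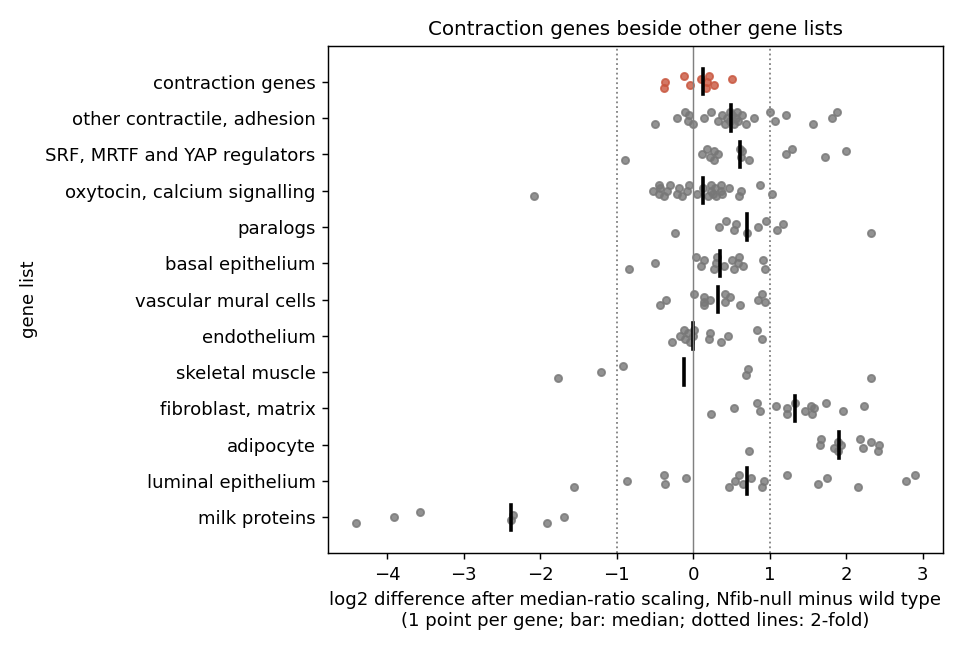
Log2 difference after median-ratio scaling (Nfib-null minus wild type) for each gene above the minimum in 13 lists, with a point per gene, a black bar for each median and dotted lines at 2-fold. The 10 contraction genes all lie between the dotted lines (median 0.13), the adipocyte genes lie highest (median 1.91) and the milk protein genes lowest (-2.38). With luminal scaling the contraction median is -0.57, and with quantile normalization the milk protein median is 0.

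The contraction genes can come from basal epithelium or from vessel walls, and markers of both that are not contractile were present. Basal epithelial markers had 16 of 18 genes above the minimum, with 0 higher and 0 lower beside 6.95% and 5.97% of all genes. Their median was 0.35, and -0.31 with luminal scaling. Their summed level was 493 against 356 RPKM, and none was at 0. The basal keratin genes Krt5 (74.2 against 38.2 RPKM, 0.53) and Krt14 (57.2 against 39.0 RPKM, 0.14) and the basal transcription factor gene Trp63 (6.40 against 3.12 RPKM, 0.51) were within 2-fold. The member of this list farthest from 0 was the integrin gene Itgb4 (18.4 against 6.84 RPKM, 0.93). Of the 16 genes 14 lay above 0. Below it, and outside the naming rule, were Itga6 (63.0 against 85.6 RPKM, -0.84) and Lamb3 (25.6 against 27.5 RPKM, -0.50). Itga6 passed 2-fold lower with basal scaling (-1.21). Relative to Krt14 within each column, 5 contraction genes were higher and 5 lower in the Nfib-null column, with a median change of -0.0074. Relative to Krt5 all 10 were lower, with a median change of -0.41, from -0.040 for Acta2 to -0.95 for Actg2. After scaling, Krt5 itself (0.53) lay above the upper quartile of all genes (0.39), so more than 75% of all genes lay below it. Krt14 (0.14) lay between the quartiles. The reading against the basal layer thus differed with the keratin gene chosen.

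Markers of pericytes and vascular smooth muscle had 14 of 14 genes above the minimum, 0 higher and 0 lower, beside 6.95% and 5.97% of all genes. Their median was 0.32, and -0.26 with luminal scaling. Their summed level was 156 against 94.7 RPKM, and none was at 0. Rgs5, a pericyte gene, stood at 27.6 against 26.8 RPKM (-0.35), while 12 of the 14 markers lay above 0. Notch3, the receptor of vascular muscle cells, stood at 23.4 against 13.0 RPKM (0.42), and Ednra, the endothelin receptor gene and the one farthest from 0, at 6.66 against 2.21 RPKM (0.93). Endothelial markers had 14 of 14 genes above the minimum, 0 higher and 0 lower, with a median of 0.0029, and Vwf was farthest from 0 at 0.90. Their summed level was 274 against 197 RPKM. The parts of basal and vessel cells in the values of the 10 contraction genes were not tested. Luminal epithelial markers, which set one of the scalings, had 6 of 18 genes higher and 1 lower and a median of 0.71.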

How the data were processed

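Per the labels' protocols, poly(A) RNA of whole mammary gland was sequenced on an Illumina HiSeq instrument after TruSeq preparation. The submitters' processing notes name CASAVA, TopHat and the build mm9 with no version. The counting tool, annotation and strand setting are not stated in any source used here. The authors deposited RPKM values, per the file headers, in 2 columns with 1 value per gene for each group. Of 12205 values with 10 decimals in the column taken as Nfib-null, 98.1% ended in 33 or 67, as a mean of 3 values can give. Of 67 such values in the wild-type column 0% did. Nfib-null is the group with 3 libraries, so these endings go with the assignment of the column.

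Genes averaging 1 RPKM or more over the 5 libraries entered (12511, leaving out 10098), both columns were scaled by median ratios, and differences of log2(scaled RPKM + 1) were taken, a scale that understates the change of low genes. With single columns no test was possible, and limma was not run. The calculations used Python 3.11.15, numpy 2.4.6 and pandas 2.3.3, and the steps were tested on simulated data. The 10 members and 12 companion lists were chosen with earlier results of these data known. Named genes were the members, their paralogs, a fixed set of regulators and markers, and up to 3 genes of largest difference in each direction per companion list, or the farthest from 0 where none passed 2-fold. A gene that the rule selects is not reported here. For fibroblast, adipocyte, luminal and milk protein lists no single genes are named.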

Additional observations from a re-analysis of the deposited data

How the results depend on the processing

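None of the 10 contraction genes passed the fold limit under any alternative except luminal scaling, with 2 lower beside 24.9% of all genes. With limits of 1.5-fold and 4-fold the count stayed at 0, beside 31.8% and 1.96% of all genes. Their median, 0.13 after median-ratio scaling, was 0.53 as deposited, 0.30 with equal sums, -0.57 with luminal markers and -0.24 with basal markers, and stayed within 0.1 of the main value under the pseudocounts, minimums and quantile normalization. In the other 83 contractile, regulatory, signalling and paralog genes, 13 were higher and 1 lower, with a median of 0.37. Of all genes, 6.95% were higher and 5.97% lower. As deposited 24 of the 83 were higher and 1 lower (median 0.76), beside 1800 and 369 of all 12511 genes. With luminal markers 5 were higher and 9 lower (-0.29), beside 1.77% and 24.9% of all genes. With basal markers 6 were higher and 2 lower (0.042), beside 421 and 1559 of all 12511 genes. A pseudocount of 5 left 7 higher and 1 lower, beside 346 and 444 of all genes. A limit of 1.5-fold gave 28 higher and 2 lower, beside 2145 and 1833 of all genes. A limit of 4-fold gave 1 higher and 1 lower, beside 91 and 154. The median was 0.48 after quantile normalization, 0.54 with equal sums, 0.26 without a minimum and 0.48 with a minimum of 5 RPKM. The causes were not tested. Over all genes, 53.8% of those past 2-fold were higher after median-ratio scaling (869 higher, 747 lower), 83.0% as deposited, 68.2% with equal sums, 21.3% with basal and 6.65% with luminal markers. No paired analysis was possible because the table holds no values of single libraries, and leaving out each replicate was not run for the same reason.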
